A study of Mus musculus with 9 samples.

Results

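Cholesterol synthesis and sterol transport were followed through 33 named genes, out of 30407 genes shared by the feature lists of both experiments. All 33 were found by symbol in all 9 libraries. By role they were 7 genes of the mevalonate steps, 11 of the squalene and sterol steps, 5 of sterol sensing, 3 of lysosomal and cytosolic sterol transport and 7 of efflux, storage and the oxysterol response. The 18 genes of the mevalonate, squalene and sterol steps are called synthesis genes below.

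Cells make cholesterol from acetyl-CoA by way of mevalonate, farnesyl pyrophosphate, squalene and lanosterol. When sterols are low in the endoplasmic reticulum, SCAP carries the SREBP proteins to the Golgi, where they are cut to release transcription factors that bind near NF-Y and SP1 sites in the promoters of synthesis genes. When sterols are high, the INSIG proteins hold SCAP back, and oxysterols activate the LXR receptors, which raise efflux genes. In Hedgehog signalling, which SAG switches on by binding Smoothened, sterols also act on the receptor Patched and on Smoothened itself.

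RNA of single NIH3T3-CG cells, labelled as embryonic fibroblasts of the mouse, was measured in 9 libraries of 1 line. Experiment 1 has 1 library each at 0, 17 and 30 h of SAG, and its labels do not mention Dox. Experiment 2 has 1 library each at 0, 19 and 30 h of SAG without Dox and again with Dox. What Dox switches on in this line, for how long it was given and whether cultures were separate is not in the labels. No SAG-free library of the later times was analysed here, so SAG and time in culture cannot be told apart.

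Kept cells had 5000 or more unique molecular identifiers (UMIs), of which no more than 10% were mitochondrial. There were 571 to 6520 of them per library, and their counts were summed to between 19407468 and 105444824 UMIs on the shared genes. The libraries were uneven: the kept cells of Experiment 2 at 19 h without Dox had a median of 8025 UMIs against 28335 to 48188 in the other 8. Cells with under 1% mitochondrial UMIs made up 17.87% to 19.69% of Experiment 2 at 30 h without Dox and at 19 and 30 h with Dox, against 0.4287% to 1.411% elsewhere. All 10 fibroblast markers were detected in every library, at a summed 4484 to 9862 CPM, the usual level in which every library's UMIs are scaled to the same total. The adipocyte list, whose cells would carry their own lipid genes, summed to 0.8725 to 7.039 CPM, with Cidec and Lep at 0 throughout. The SAG response was present in the labelled direction, since Gli1 went from 0.0353 to 0.240 CPM at 0 h to 4.40 to 30.3 CPM at 30 h.

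Promoter sequence was given by RefSeq (GRCm38.p6, from 250 bases before to 50 after the start) for 27 of the 33 genes. No window was given for Fdps, Fdft1, Sqle, Stard4, Npc1 and Abcg1. Hmgcs1, Idi1, Cyp51 and Sc5d are shown because they stand for the synthesis genes, which were lower together in Experiment 1 than in Experiment 2. The stretches lie at chr13:119690151-119690350 (plus strand) for Hmgcs1, chr13:8885549-8885578 (plus) for Idi1, chr5:4104709-4104738 (minus) for Cyp51 and chr9:42264301-42264500 (minus) for Sc5d. Capitals mark the NF-Y letters CCAAT or their reverse complement, the SREBP site letters TCACNCCAC and the E-box CACGTG. For Idi1 and Cyp51 only 30 bases around an NF-Y match are shown, and these lie inside the gene as GENCODE places it. Those of Hmgcs1 and Sc5d are 200 bases before the first annotated exon.
Hmgcs1: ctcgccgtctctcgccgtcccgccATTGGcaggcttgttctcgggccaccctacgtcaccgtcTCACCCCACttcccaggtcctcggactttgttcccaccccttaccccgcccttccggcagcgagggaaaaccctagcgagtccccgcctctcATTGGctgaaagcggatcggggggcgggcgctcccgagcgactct
Idi1: tgcctccagctgATTGGcgagcccgggcat
Cyp51: cgctgtccgccaCCAATctggtcctgagat
Sc5d: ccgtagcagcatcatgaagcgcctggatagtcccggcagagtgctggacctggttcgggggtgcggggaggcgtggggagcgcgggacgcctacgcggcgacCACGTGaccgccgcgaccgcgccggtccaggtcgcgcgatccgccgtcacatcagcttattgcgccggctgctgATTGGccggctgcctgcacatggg
Insig1, a sterol sensor that is itself an SREBP target, is set beside Mylip and Abca1, LXR targets that were higher with Dox. They lie at chr5:28071163-28071362 (plus) for Insig1, chr13:45389542-45389741 (plus) for Mylip and chr4:53159896-53160095 (minus) for Abca1.
Insig1: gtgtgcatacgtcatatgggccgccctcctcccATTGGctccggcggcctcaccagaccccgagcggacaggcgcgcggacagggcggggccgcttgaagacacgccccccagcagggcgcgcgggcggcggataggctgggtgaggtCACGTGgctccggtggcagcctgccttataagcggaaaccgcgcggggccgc
Mylip: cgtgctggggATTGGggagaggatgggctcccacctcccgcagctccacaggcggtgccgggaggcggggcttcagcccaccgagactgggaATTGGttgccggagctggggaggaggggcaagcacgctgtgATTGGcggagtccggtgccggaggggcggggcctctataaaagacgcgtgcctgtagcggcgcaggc
Abca1: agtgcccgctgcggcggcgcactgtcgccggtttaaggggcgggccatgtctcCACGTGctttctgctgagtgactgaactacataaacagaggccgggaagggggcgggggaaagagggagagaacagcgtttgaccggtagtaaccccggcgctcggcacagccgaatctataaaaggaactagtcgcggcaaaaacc

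CCAAT on either strand was in the window of 14 of the 15 synthesis genes that had one (93.3%), all but Acat2, and in 7 of 12 of the other genes (58.3%), against 41.1% of 27025 genes with a RefSeq window. The letters GGGCGG, an SP1 site not set in capitals, were also in 14 of those 15, all but Pmvk. They were in 9 of 12 of the other genes (75.0%) and in 38.2% of all genes. TCACNCCAC was found in 1 of the 27, Hmgcs1, and in 1.44% of all genes. The E-box was in 6 of the 27 (22.2%), Hsd17b7, Sc5d, Dhcr7, Scap, Insig1 and Abca1, and in 8.09% of all genes. These are matches of letters and not measured binding, and the 4 searches did not overlap in the stretches shown.

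Transcripts of 31 of the 33 genes were numerous enough to test. Abcg1, a cholesterol exporter, and Ch25h, which makes 25-hydroxycholesterol, were not seen in any library. With 0 UMIs, the upper limit from 3 counts lies between 0.0285 and 0.155 CPM, depending on the library. Nr1h3, encoding LXR alpha, passed the filter with at most 7 UMIs in any library, so no difference is read from it. Nr1h2, encoding LXR beta, was at 14.9 to 44.2 CPM, though a pseudogene named Nr1h2-ps could share its reads. Levels in CPM divide by all UMIs of a library, while tests used TMM factors of edgeR, which ranged from 0.694 in Experiment 2 at 0 h without Dox to 1.19 with Dox at 19 h. Because of this span, a difference between libraries can be larger or smaller on one scale than on the other.

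**Figure D1:**
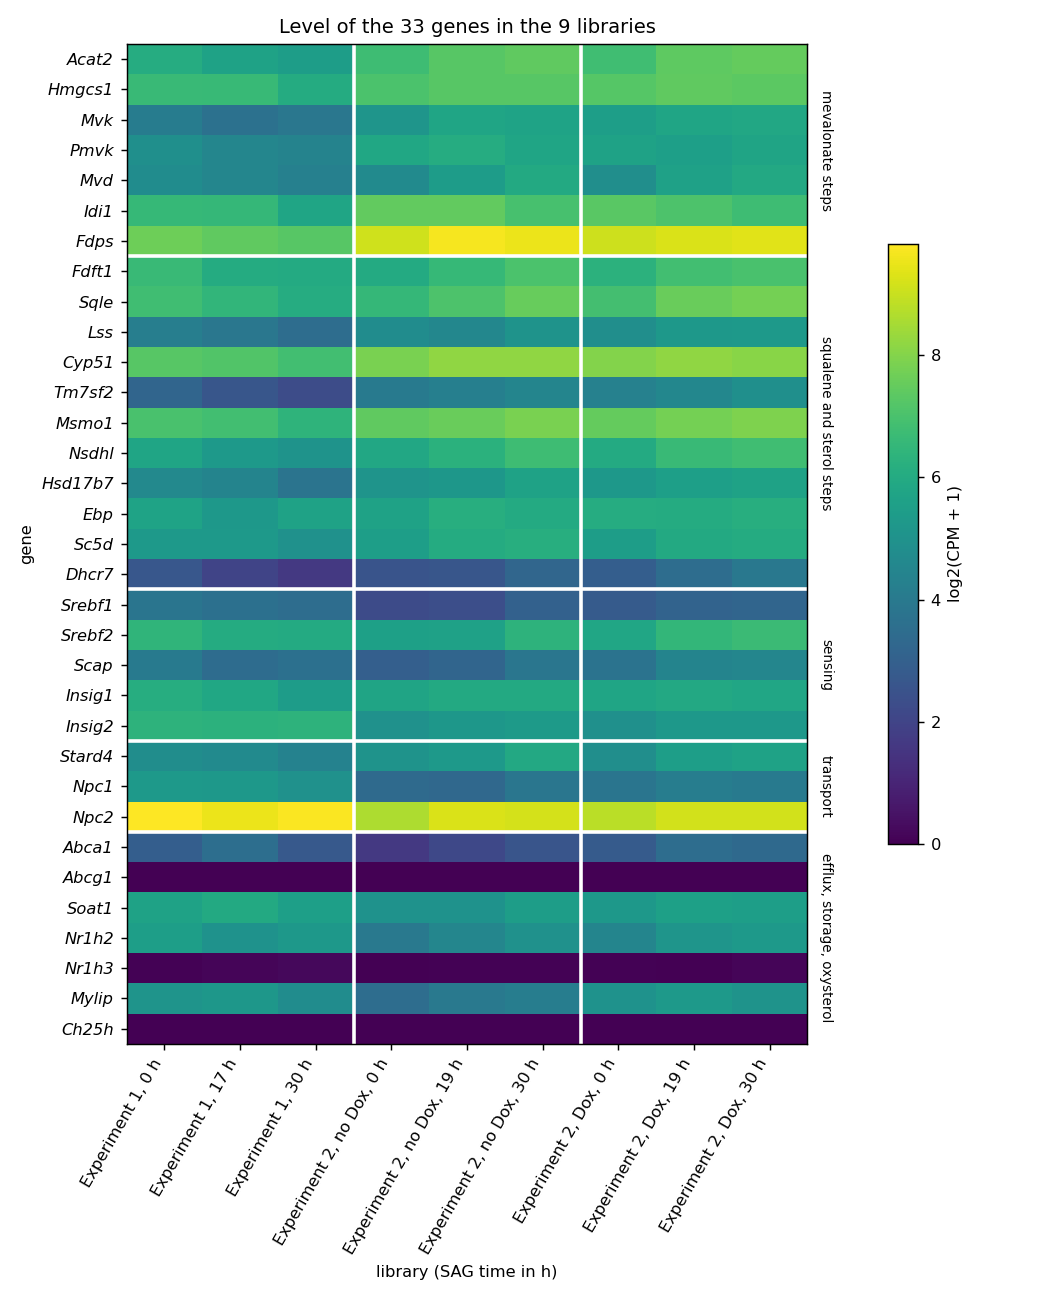
Level of the 33 genes (rows, by role) in the 9 libraries (columns), coloured by log2(CPM + 1). Within a row, most synthesis genes are darkest, that is lowest, in the 3 columns of Experiment 1, Npc1, Npc2, Insig2 and Srebf1 are brightest there, and Abcg1 and Ch25h are at 0 throughout.

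The clearest difference among these genes was between the experiments. All 18 synthesis genes were lower in Experiment 1 than in Experiment 2 without Dox, with a median log2 difference of -1.40 against -0.02 over all 14354 genes tested. The median was -1.82 for the 7 mevalonate genes and -1.31 for the 11 squalene and sterol genes. Npc1, Insig2, Srebf1, Mylip and Abca1 were higher. In all 25 of 31 genes passed edgeR's quasi-likelihood test at an adjusted p under 0.05, where 46.3% of all genes tested passed. The 20 lower genes are to be read against 23.5% of all genes called lower. The experiments were also counted with different software versions and feature lists, so culture, library and counting cannot be told apart.

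Of the mevalonate genes, Fdps makes farnesyl pyrophosphate, the branch point to sterols and prenylated proteins. Levels are given here in order of SAG time, 0, 17 and 30 h in Experiment 1 and 0, 19 and 30 h in Experiment 2 without Dox, and differences are log2 of Experiment 1 over Experiment 2. Fdps was at 200.4, 172 and 154.5 CPM in Experiment 1 and at 554, 815 and 748 CPM in Experiment 2 (difference -2.45, SE 0.18, edgeR adjusted p = 5.36e-06). Mvk, mevalonate kinase, was at 16.5, 11.7 and 13.9 CPM against 33.5, 53.3 and 50.7 CPM (difference -2.15, SE 0.17, edgeR adjusted p = 8.84e-06). The groups did not overlap for either gene. The share of all genes tested that did not overlap between these 2 groups of 3 libraries was not counted, so non-overlap is only a description here. Pmvk, the kinase of the next step, was at 28.3, 21.7 and 19.8 CPM against 57.1, 67.2 and 53.9 CPM (difference -1.82, SE 0.16, edgeR adjusted p = 1.77e-05). Acat2, which joins acetyl-CoA units at the head of the pathway, was at 66.4, 50.1 and 43.0 CPM against 107, 152 and 172 CPM (difference -1.87, SE 0.18, edgeR adjusted p = 3.33e-05). Both were low in all 3 libraries of Experiment 1, and in Acat2 the experiments moved apart with SAG time. Idi1, the isomerase of isopentenyl pyrophosphate, was at 93.5, 93.0 and 53.4 CPM against 176, 175 and 124.5 CPM (difference -1.46, SE 0.16, edgeR adjusted p = 7.65e-05). Hmgcs1, HMG-CoA synthase of the cytosol, was at 101, 96.9 and 64.5 CPM against 131, 153 and 155 CPM (difference -1.22, SE 0.14, edgeR adjusted p = 0.000115). In both genes the lowest library was Experiment 1 at 30 h. The remaining mevalonate gene, the decarboxylase Mvd, was also called lower.

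Among the sterol steps, Tm7sf2, a sterol reductase, was at 8.17, 5.10 and 3.84 CPM in Experiment 1 and at 15.3, 17.7 and 21.1 CPM in Experiment 2 without Dox (difference -2.12, SE 0.21, edgeR adjusted p = 3.42e-05). Its gene overlaps Vps51 on the same strand, which makes its count less certain. Hsd17b7, a ketoreductase that helps remove methyl groups from lanosterol, was at 23.7, 20.4 and 12.8 CPM against 32.6, 35.7 and 49.0 CPM (difference -1.50, SE 0.18, edgeR adjusted p = 0.000139). Cyp51, the lanosterol demethylase, was at 154, 140.0 and 115 CPM against 227, 291 and 289 CPM (difference -1.43, SE 0.14, edgeR adjusted p = 4.1e-05). Neither gene overlapped between the experiments, again without a share over all genes to set it against. Lss, which closes the rings of lanosterol, was at 17.2, 13.7 and 10.3 CPM against 26.2, 22.4 and 32.2 CPM (difference -1.43, SE 0.16, edgeR adjusted p = 8.55e-05). Sc5d, a desaturase of a late step, was at 39.0, 38.4 and 30.7 CPM against 44.1, 64.6 and 69.8 CPM (difference -1.15, SE 0.14, edgeR adjusted p = 0.000116). In CPM its libraries at 0 h lay close together and those at 30 h far apart, while by TMM the differences were -0.93 and -1.35. The 6 others, Fdft1, Sqle, Msmo1, Nsdhl, Ebp and Dhcr7, were called lower with log2 differences of -1.37 to -0.74. In CPM the groups overlapped for Fdft1, Sqle, Ebp, Dhcr7 and Mvd. For Sqle, Ebp, Dhcr7 and Mvd this was through the 0 h library of Experiment 1 alone, while for Fdft1 all 3 libraries of Experiment 1, at 63.2 to 99.9 CPM, lay above the 62.7 CPM of Experiment 2 at 0 h. Antisense neighbours (Akap9 for Cyp51, 4930483K19Rik for Lss, Ctsb for Fdft1) could have shared reads with these genes, since strand use in counting is not given.

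**Figure D2:**
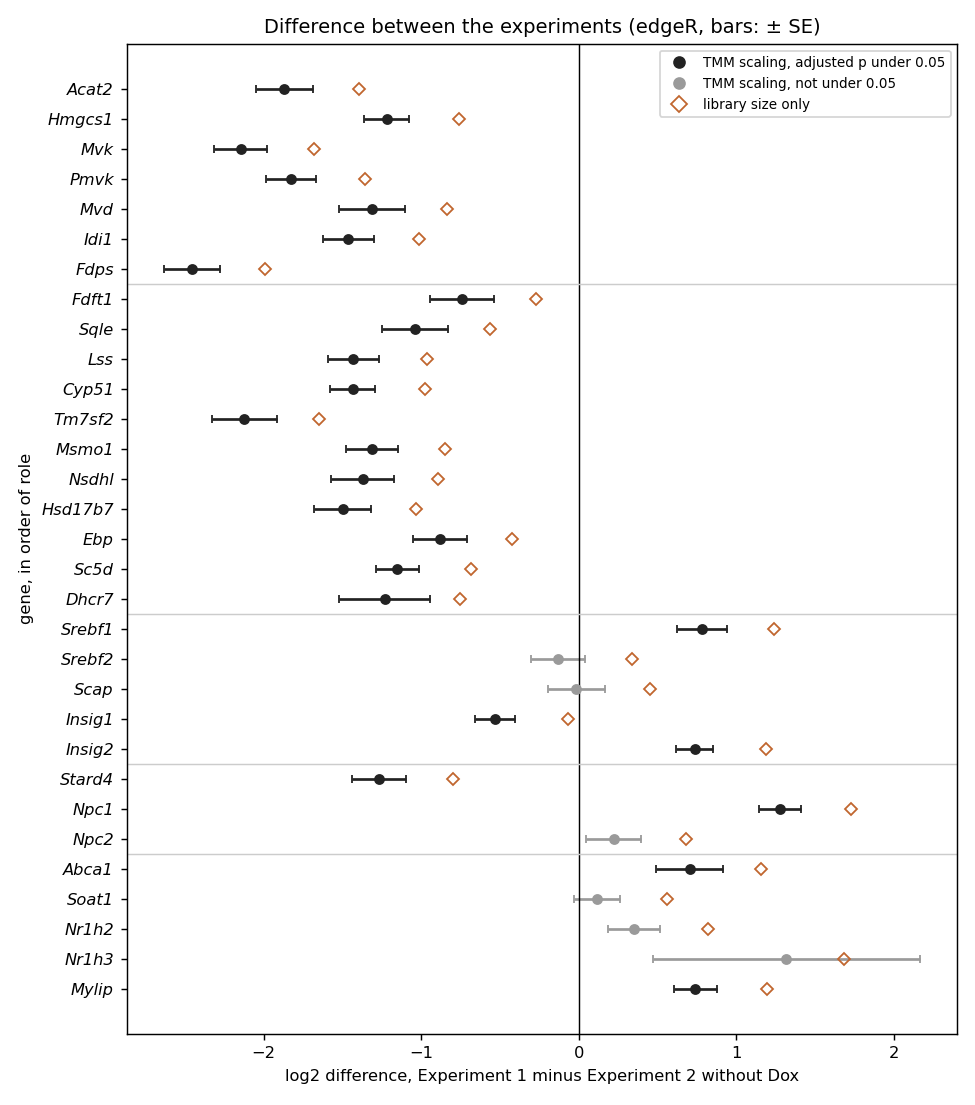
Log2 difference between Experiment 1 and Experiment 2 without Dox for the 31 tested genes by role, with bars for the standard error of edgeR's fit, black points for an adjusted p under 0.05, grey points for the others and open diamonds for the value with library size alone. All 18 synthesis genes lie below 0, and Npc1 at 1.28 lies farthest above it among the genes that passed.

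Sterol transport and sensing did not follow the synthesis genes as a block. Npc1, which moves cholesterol out of lysosomes, was at 37.7, 36.7 and 30.6 CPM in Experiment 1 and at 9.44, 9.04 and 13.5 CPM in Experiment 2 without Dox (difference 1.28, SE 0.13, edgeR adjusted p = 5.18e-05). Its partner Npc2, the soluble carrier of the lysosome, was at 743 to 903 CPM against 393 to 619 CPM. The Npc2 ranges did not overlap, which again is only a description. Even so, edgeR's difference of 0.22 (SE 0.18, adjusted p = 0.323) did not pass, and it passed when libraries were scaled by size alone. Stard4, which carries sterol through the cytosol, was called lower at -1.27 (SE 0.17, edgeR adjusted p = 0.000244). Insig1 was also lower, at -0.53 (SE 0.13, edgeR adjusted p = 0.00633), but at -0.07 and not called with library size alone. Insig2, the other sensor, was at 78.3 to 80.7 CPM against 30.2 to 39.98 CPM, and was called higher by 0.74 (SE 0.12, edgeR adjusted p = 0.000632). Thus the pair of INSIG genes differed in direction. Srebf1, which mainly drives fatty acid genes, was higher by 0.78, Mylip, a ubiquitin ligase that acts on lipoprotein receptors, by 0.74, and Abca1, a cholesterol exporter, by 0.70. Srebf2, the main activator of cholesterol synthesis genes, and Scap, its escort, were at -0.13 and -0.02 and not called, and at 0.34 and 0.45 with library size alone. The 6 genes that did not pass were Srebf2, Scap, Npc2, Soat1, Nr1h2 and Nr1h3.

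Scaling by library size alone moved the median of all genes by 0.46 in this comparison and left 23 of the 31 genes called, 15 lower and 8 higher. The number of all genes called with that scaling is not given here, so the 23 are not read as particular to the list. Dhcr7, Ebp, Fdft1, Insig1 and Sqle lost the call, and Npc2, Nr1h2 and Soat1 gained it. On the CPM scale the 3 libraries of Experiment 1 lay wholly below the 6 of Experiment 2 for 14 genes, of which 13 were synthesis genes and the other was Stard4, where 12.2% of all genes tested did so. They lay wholly above for Srebf1, Insig2, Npc1 and Npc2, where 25.8% of all genes did so. The share of UMIs from ribosomal protein genes, a measure of RNA makeup, also differed, with a median per cell of 26.84% to 30.23% in Experiment 1 and 35.49% to 41.14% in Experiment 2 without Dox, and its part in these differences was not tested. The summed levels of the smooth muscle and adipocyte lists differed between the experiments as well. The smooth muscle list, with 5 of 5 genes detected throughout, summed to 138.9 to 199.4 CPM in Experiment 1 and 337.2 to 489.4 CPM in Experiment 2. That sum was nearly all Acta2 (77.75 to 371.2 CPM) and Tagln (57.45 to 173.4 CPM). Des was at 3.349 to 5.147 CPM, and Myh11 and Cnn1 reached no more than 0.2423 and 0.4223 CPM in any library. The adipocyte list, with 3 of 7 genes detected in Experiment 1 and 3 to 5 in Experiment 2, summed to 3.813 to 7.039 CPM and 0.8725 to 3.045 CPM. Cidec and Lep were at 0 in all 9 libraries and Adipoq and Cfd in all 3 of Experiment 1. The part of either list in these differences was not tested.

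Idi1 alone among the 31 genes passed edgeR's test between 30 h of SAG and 0 h over the 3 arms, Experiment 1 and Experiment 2 without and with Dox. It was lower at 30 h. That is 3.23% of the genes against 5.39% of all genes tested, so the count is no larger than the background. The 18 synthesis genes had 6 positive and 12 negative log2 changes with a median of -0.15, and all genes had a median of -0.00. With library size alone 14 were positive and 4 negative (Cyp51, Hmgcs1, Idi1 and Pmvk), with a median of 0.11 beside 0.28 over all genes. The direction of many of them thus depended on the scaling.

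Idi1 (ENSMUSG00000058258, chr13:8885501-8892451) was at 93.5, 93.0 and 53.4 CPM at 0, 17 and 30 h in Experiment 1, with a counting interval (95%, exact Poisson) of 90.02 to 97.08 at 0 h and 50.49 to 56.45 at 30 h. Experiment 2 without Dox had 176, 175 and 124.5 CPM and Experiment 2 with Dox had 158, 134 and 107 CPM. In every arm the 30 h library was the lowest. The log2 change from 0 to 30 h was -0.90 (SE 0.16, edgeR adjusted p = 0.0302), and within arms it was -0.73, -1.01 and -0.95. With library size alone the change was -0.62 and was not called (edgeR adjusted p = 0.123), with -0.81, -0.50 and -0.56 within arms. The call held in 10 of 20 alternative fits, with adjusted p from 2.55e-05 to 0.576, the highest without the experiment as a block, and the fall kept its sign in all 20. It was lost without the 17 h library of Experiment 1, without any of the 3 libraries of Experiment 2 without Dox, or without the 0 or 30 h library with Dox.

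The next genes by p did not pass. Insig1 was at 68.2, 57.0 and 42.5 CPM in Experiment 1, at 52.0, 61.7 and 60.7 CPM in Experiment 2 without Dox and at 53.0, 60.1 and 55.0 CPM with Dox, so on this scale it was low at 30 h in Experiment 1 and not in Experiment 2. On the TMM scale of the test it was lower at 30 h than at 0 h in each arm. Its log2 change was -0.41 (SE 0.13, edgeR adjusted p = 0.0716). Pmvk changed by -0.44 (SE 0.15) and Hmgcs1 by -0.37 (SE 0.14), with edgeR adjusted p of 0.0907 and 0.109. DESeq2 called 3 of the 31, Idi1, Insig1 and Hmgcs1, all lower. On the positive side Mvd had 0.37 (SE 0.20, edgeR adjusted p = 0.229), Nr1h2 0.26 (SE 0.16, adjusted p = 0.287) and Abca1 0.31 (SE 0.21, adjusted p = 0.311). Mvd, the mevalonate decarboxylase, was at 26.1, 21.5 and 18.4 CPM in Experiment 1, at 25.3, 41.6 and 62.3 CPM in Experiment 2 without Dox and at 27.8, 48.7 and 59.2 CPM with Dox. It thus went down in Experiment 1 and up in both arms of Experiment 2. Without the 0 h library of Experiment 1, 7 of the 31 were called, Fdft1, Mvd, Nr1h2 and Scap higher and Idi1, Insig1 and Pmvk lower, and without its 30 h library 3 were called, Abca1 and Mvd higher and Idi1 lower. The number called over all genes also shifted widely with the library left out, so these counts are not read as particular to the 31.

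At 17 to 19 h of SAG none of the 31 genes passed against 0 h, where edgeR called 2 genes in all (0.0139%). 1 of the 31 had an unadjusted p under 0.05, beside 1598 of all 14354 genes, and DESeq2 called 0 of the 31. That gene, Abca1, was at 6.56, 10.7 and 5.64 CPM at 0, 17 and 30 h in Experiment 1, at 2.08, 3.39 and 5.06 CPM at 0, 19 and 30 h in Experiment 2 without Dox and at 6.09, 10.3 and 9.15 CPM with Dox. Abca1 was thus higher at 17 to 19 h than at 0 h in each arm, with a log2 change of 0.53 (SE 0.21, edgeR adjusted p = 0.405). Idi1 and Pmvk had -0.27 and -0.26, with SE of 0.16 and 0.15 (edgeR adjusted p = 0.53 and 0.531). Lss had -0.24 (SE 0.16, edgeR adjusted p = 0.564), and Sc5d and Mvd had 0.16 (SE 0.13, adjusted p = 0.669) and 0.21 (SE 0.20, adjusted p = 0.699).

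From 17 to 19 h to 30 h, edgeR called 0 genes of 14354 (0%), with 708 at an unadjusted p under 0.05, and DESeq2 also called 0. Among the 31 genes 1 had an unadjusted p under 0.05, Idi1, whose log2 change was -0.63 (SE 0.16, edgeR adjusted p = 0.769). Insig1 had -0.28 (SE 0.13) and Hmgcs1 -0.31 (SE 0.14). Nr1h2, Scap and Srebf2 had 0.21, 0.23 and 0.22, with SE of 0.16 to 0.18. The edgeR adjusted p of these 5 genes was 0.769 or 0.776.

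**Figure D3:**
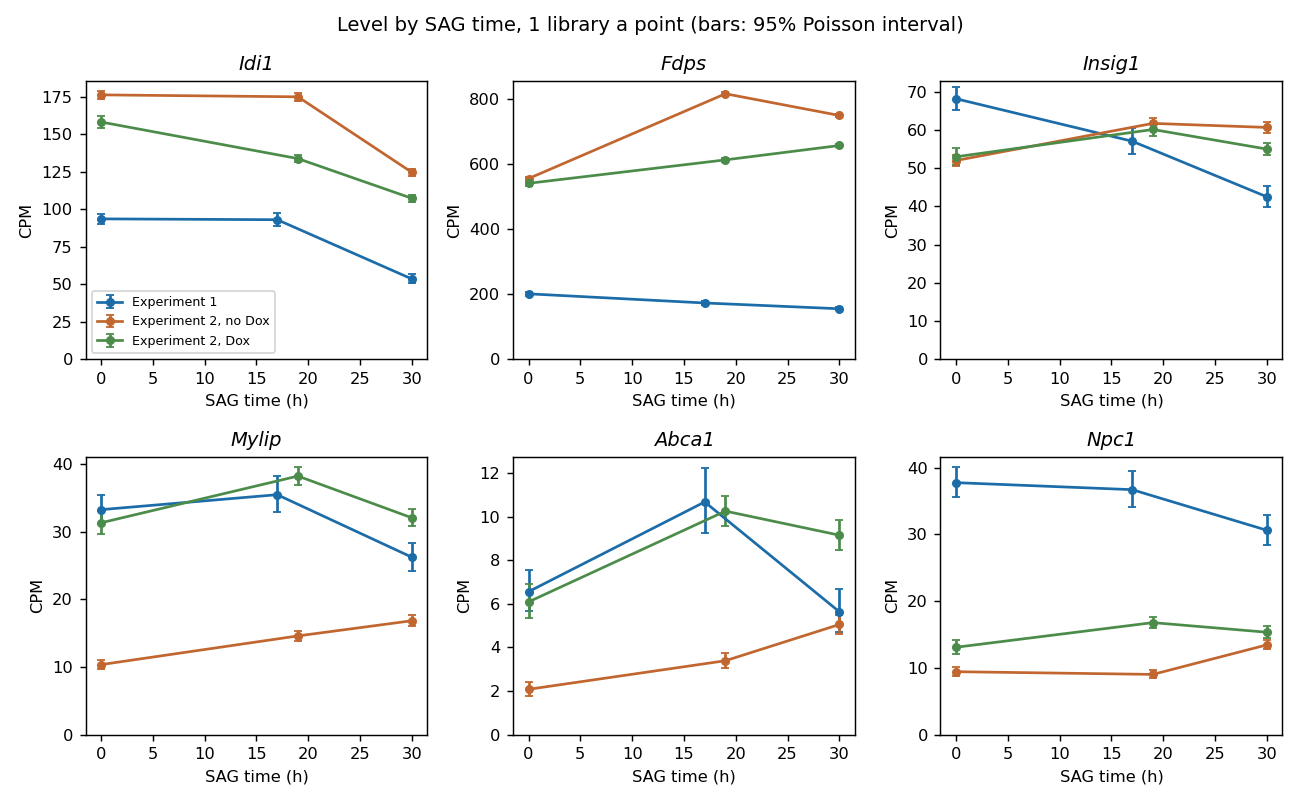
Level in CPM over hours of SAG in panels with their own axes for Idi1, Fdps, Insig1, Mylip, Abca1 and Npc1, with a line per arm and bars for the exact Poisson interval of 1 library. Idi1 is lowest at 30 h in each arm, and Mylip and Abca1 are lowest in Experiment 2 without Dox.

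Within Experiment 1 nearly all synthesis genes were lower at 30 h than at 0 h, and in Experiment 2 they were not. In Experiment 1, 17 of the 18 had a negative log2 change on the TMM scale, with a median of -0.57 against -0.01 over all genes, and the exception was Ebp at 0.03. At 17 h, 15 of the 18 were already negative, with a median of -0.25. In Experiment 2 without Dox 9 were positive and 9 negative with a median of 0.02, and with Dox 11 were positive and 7 negative with a median of 0.07. Scaled by library size alone the medians were -0.65, 0.53 and 0.46, beside -0.09, 0.50 and 0.40 over all genes. So in Experiment 2 the direction of these genes depended on the scaling and followed that of all genes. Each of these changes sets 1 library against 1 and has no replicate check.

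**Figure D4:**
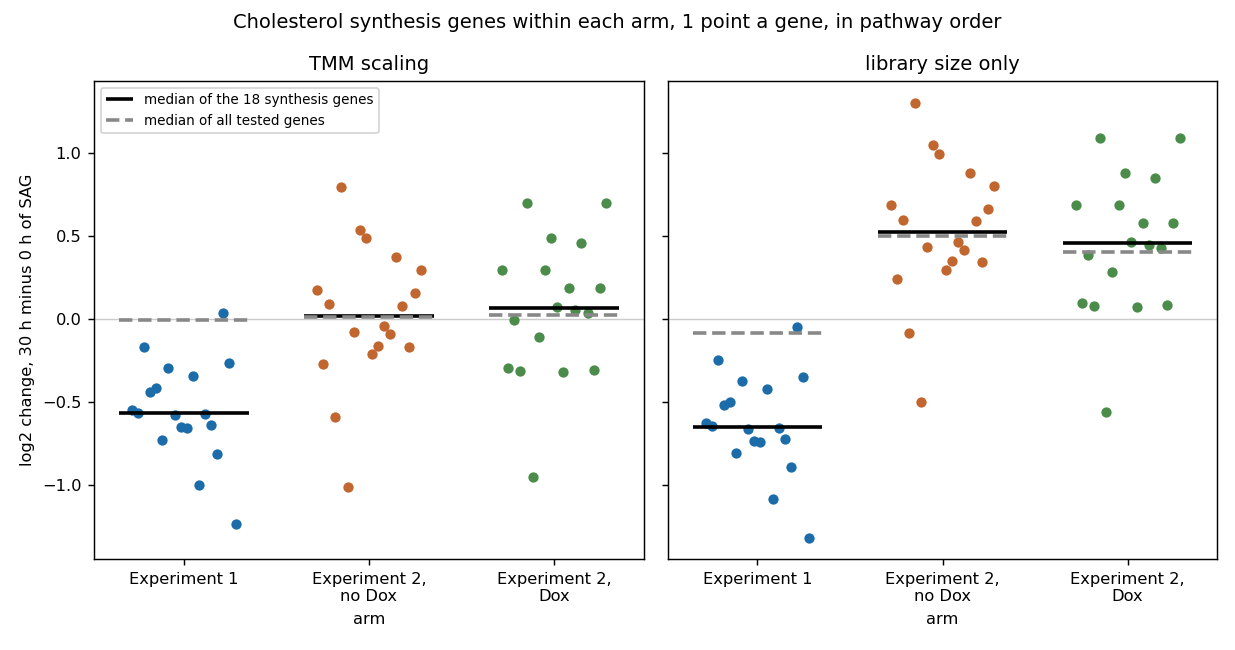
Log2 change from 0 to 30 h of SAG within each arm for the 18 synthesis genes (1 point a gene), by TMM scaling and by library size alone, with solid lines for their median and dashed lines for the median over all tested genes. Points of Experiment 1 lie below 0 but for Ebp by TMM, and those of Experiment 2 lie on both sides by TMM and mostly above 0 by library size.

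Named genes show this split. Dhcr7, the last reductase on the way to cholesterol, was at 5.36, 3.04 and 2.13 CPM in Experiment 1, at 4.89, 5.21 and 8.54 CPM in Experiment 2 without Dox and at 6.60, 10.4 and 14.1 CPM with Dox. Sqle, squalene epoxidase, was at 109.9, 88.2 and 66.2 CPM, at 93.0, 133 and 185 CPM and at 118, 192 and 218 CPM in the same order. Fdft1, squalene synthase, was at 99.9, 65.2 and 63.2 CPM, at 62.7, 95.6 and 129 CPM and at 79.1, 115 and 127 CPM. All 3 were highest at 0 h in Experiment 1 and lowest at 0 h in both arms of Experiment 2. By TMM their 30 h change was -1.23, -0.65 and -0.58 in Experiment 1 and 0.30, 0.49 and 0.54 in Experiment 2 without Dox.

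The difference of the SAG response itself, Experiment 1 minus Experiment 2 without Dox with both later times taken as SAG, called none of the 31 genes by edgeR, where 8 genes of 14354 were called (0.0557%). 9 of the 31 had an unadjusted p under 0.05, beside 1735 of all 14354 genes, and DESeq2 called 1 of the 31, Fdft1. The 18 synthesis genes had 17 negative values with a median of -0.40, beside -0.06 over all genes, and with library size alone 18 negative values with a median of -0.84, beside -0.52. Fdft1 had -1.02 (SE 0.27), Mvd -0.95 (SE 0.31) and Nsdhl, a dehydrogenase of sterol demethylation, -0.77 (SE 0.30), with edgeR adjusted p of 0.255, 0.31 and 0.365. The largest positive values by p were 0.34 for Soat1 (SE 0.30), 0.30 for Idi1 (SE 0.51) and 0.10 for Insig2 (SE 0.25), at adjusted p of 0.621 or more in edgeR. Without the 19 h library of Experiment 2 without Dox, the shallow one, edgeR called 7 of the 31, Dhcr7, Fdft1, Mvd, Nr1h2, Nsdhl, Scap and Sqle. Calls over all genes also varied widely between such fits, so this count is not read as particular to these genes. The response with Dox minus that without called 0 genes of 14354 by edgeR (0%), with 186 at an unadjusted p under 0.05 and 1 called by DESeq2. None of the 31 had an unadjusted p under 0.05 there, and DESeq2 called none of them. The values nearest to the threshold were 0.37 for Lss (SE 0.30), 0.33 for Srebf2 (SE 0.32), 0.40 for Dhcr7 (SE 0.39), -0.46 for Mylip (SE 0.31), -0.43 for Ebp (SE 0.34) and -0.34 for Mvk (SE 0.29), all at an edgeR adjusted p of 1.

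Dox in Experiment 2 went with higher Mylip and Abca1 and with lower Idi1, Pmvk, Fdps and Insig2. These 6 of 31 genes passed edgeR's test, 19.4% against 9.91% of all genes tested. The synthesis genes had 17 negative values of 18, with a median log2 difference of -0.25 beside 0.02 over all genes, and 3 of the 18 were called. With library size alone that count turned round, to 14 positive and 4 negative values (Fdps, Idi1, Pmvk and Sc5d) with a median of 0.14 beside 0.41 over all genes.

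Mylip (ENSMUSG00000038175, chr13:45389742-45412022), an LXR target whose product marks lipoprotein receptors for breakdown, was at 10.4, 14.6 and 16.8 CPM at 0, 19 and 30 h without Dox and at 31.3, 38.2 and 32.0 CPM with Dox. The groups did not overlap. Its log2 difference was 0.91 (SE 0.14, edgeR adjusted p = 0.00391), and by time it was 1.22, 0.84 and 0.67. The libraries of Experiment 1, at 26.2 to 35.5 CPM, were near those with Dox. Abca1 (ENSMUSG00000015243, chr4:53030787-53159895), an LXR target that exports cholesterol to apolipoproteins, was at 2.08, 3.39 and 5.06 CPM without Dox and at 6.09, 10.3 and 9.15 CPM with Dox. These groups did not overlap either, with a log2 difference of 0.92 (SE 0.20, edgeR adjusted p = 0.0222) and 1.17, 1.05 and 0.60 by time. The share of all genes tested whose Dox groups did not overlap was not counted, so non-overlap is only a description here. Both were called with library size alone as well, at 1.29 each (edgeR adjusted p = 0.00864 for Mylip and 0.0248 for Abca1). Mylip was called in 18 of 19 alternative fits and lost without the 19 h library without Dox (edgeR adjusted p = 0.0569). Abca1 was called in 13 of 18, with adjusted p up to 0.185, and lost without the 0 or 19 h library without Dox or any library with Dox. Neither Nr1h2 (0.12, SE 0.16) nor Nr1h3 (0.38, SE 0.75), the genes of the LXR receptors, passed. Srebf1 (0.17, SE 0.16, edgeR adjusted p = 0.462) and Soat1 (-0.10, SE 0.14, adjusted p = 0.663) did not pass either. Abcg1, the other cholesterol exporter of the list, was not seen. The part of LXR in these differences was not tested.

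Of the lower genes, Pmvk was at 57.1, 67.2 and 53.9 CPM without Dox and at 49.6, 45.8 and 52.4 CPM with Dox (log2 difference -0.66, SE 0.15, edgeR adjusted p = 0.0258). Idi1 was at 176, 175 and 124.5 CPM against 158, 134 and 107 CPM (-0.64, SE 0.16, edgeR adjusted p = 0.0334). For Pmvk the groups did not overlap, again without a share over all genes to set it against. For Idi1 the libraries at 0 and 19 h with Dox lay above the 30 h library without. Fdps was at 554, 815 and 748 CPM against 540, 612 and 656 CPM (-0.61, SE 0.17, edgeR adjusted p = 0.048). Insig2 was at 30.2, 35.3 and 39.98 CPM against 29.6, 36.2 and 36.9 CPM (-0.43, SE 0.12, edgeR adjusted p = 0.0435). For Fdps and Insig2 the CPM ranges overlapped widely. With library size alone, which moved the median of all genes by 0.39, none of these 4 was called, at -0.27, -0.25, -0.22 and -0.04 for Pmvk, Idi1, Fdps and Insig2. At 19 h, where the library without Dox was the shallow one, the TMM differences were -1.10, -0.93, -0.96 and -0.51 in that order, larger than at 0 h or 30 h. Leaving that library out ended all 6 calls, and leaving out the 0 h library without Dox, or the 19 or 30 h library with Dox, left Mylip alone. Without the 0 h library of Experiment 1, which lends its spread to this fit, 12 of the 31 passed, and without its 30 h library 10 passed. All genes together also gave widely varying numbers of calls in such fits, so these counts are not read as particular to the 31. Idi1 was called in 14, Pmvk in 12, Fdps in 8 and Insig2 in 8 of 19 alternative fits, and all kept their sign. Scap had 0.58 (SE 0.18, edgeR adjusted p = 0.0616) and Insig1 -0.44 (SE 0.13, adjusted p = 0.0512), just outside the threshold.

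The other genes of lipid metabolism, listed beside the 33, were counted in the same fits. Between the experiments, 22.8% of all genes tested were called higher and 23.5% lower. Of 12 fatty acid synthesis genes, 7 were lower in Experiment 1 than in Experiment 2 without Dox and none higher, with a median of -0.80. Fads2, a desaturase of long-chain fatty acids, had the largest difference of them at -3.47 (edgeR adjusted p = 2.51e-07), and Scd2, Acly, Elovl6, Acss2, Acaca and Fasn had -1.44 to -0.75. In the isoprenoid branch 3 of 11 were higher (Icmt, Fntb, Nus1) and 2 lower (Pggt1b, Fnta), with a median of 0.17, and these 45.5% called are near the 46.3% of all genes. Of 16 tested genes of other sterol traffic 4 were higher (Nceh1, Gramd1a, Osbpl8, Scarb1) and 1 lower (Tmem97), with a median of 0.19, and the 31.2% called are below that share. With Dox, Lrp1 was higher by 0.66 and Tmem97 lower, at -0.50 (edgeR adjusted p = 0.047 and 0.037), which is 2 of the 16 genes of other sterol traffic (12.5%) beside 9.91% of all genes. At 30 h of SAG none of these 3 lists had a gene called by edgeR, with 1, 3 and 4 genes at an unadjusted p under 0.05 in the order given. Of all 14354 genes tested 4676 had an unadjusted p under 0.05 there, so these counts are not read as particular to the lists.

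A sum over cells does not tell fewer cells with a transcript from less RNA per cell. The share of cells with a UMI cannot tell them apart either, since it also falls when each cell holds less of the RNA. It is given as a description, after each kept cell was thinned at random to 5000 UMIs. Fdps then had at least 1 UMI in 46.5%, 38.5% and 36.6% of cells in Experiment 1 and in 79.7%, 91.3% and 84.6% in Experiment 2 without Dox (exact binomial intervals of 32.67% to 49.78% and 78.17% to 92.01% in all). Before thinning the shares were 77.9% to 82.4% and 94.3% to 97.9%. Idi1 had a UMI in 23.6%, 22.9% and 14.7% of cells in Experiment 1, in 46.4%, 54.65% and 37.0% without Dox and in 42.6%, 39.7% and 35.7% with Dox, and before thinning in 44.4% to 84.4% over the 9 libraries. The share was lowest at 30 h in each arm, as the CPM was, and it is no separate check of that level. All libraries are of 1 line, so the share that free RNA alone would give was not measured.

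Summed over the 18 synthesis genes, a thinned cell held on average 5.89, 4.59 and 3.64 UMIs at 0, 17 and 30 h in Experiment 1. It held 8.73, 11.8 and 12.1 UMIs in Experiment 2 without Dox and 9.04, 11.3 and 12.1 UMIs with Dox. The means of Experiment 1 all lay below those of Experiment 2. Cells with 0 of these UMIs made up 8.15%, 13.5% and 14.5% in Experiment 1 and 0.782% to 4.33% in Experiment 2, and before thinning 0.75% to 1.54% and at most 0.504%. The library at 19 h with Dox had 0 such cells of 2046 before thinning, which allows up to 0.147%. The 95th percentile was 20, 17 and 13.8 UMIs in Experiment 1 and 19 to 26 in Experiment 2, so that the 0 h library of Experiment 1 reached the range of Experiment 2 and its 17 and 30 h libraries did not. The variance beyond counting, divided by the squared mean, was 0.999, 1.31 and 1.21 in Experiment 1 and 0.149 to 0.371 in Experiment 2. Cells of all 3 libraries of Experiment 1 were thus more uneven in these transcripts than those of the 6 of Experiment 2, and cells and library preparation cannot be told apart here. At 10000 UMIs the ranges were 0.955 to 1.3 and 0.247 to 0.38.

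Synthesis genes also varied together from cell to cell. For 22 of the 33 genes every library had 0.05 or more UMIs per thinned cell on average, and the 91 pairs of synthesis genes had a median Pearson r of 0.131, taking for each pair the median over 9 libraries. Of the 91 pairs, 82 were positive in all 9 libraries. The 112 pairs with 1 synthesis gene had a median r of 0.0028 and the 28 pairs with none 0.0041. These are weak correlations of sparse counts across cells that share a library and a fixed depth, given as a description without a test. The highest were Fdps with Cyp51 at 0.312 (0.168 to 0.445 over libraries), Idi1 with Fdps at 0.310 (0.171 to 0.497) and Acat2 with Fdps at 0.299. Ebp, an isomerase of a late step, was less tied to Fdps, at 0.0837. Stard4, though a transport gene, had 0.155 with Hmgcs1 and 0.153 with Fdps. Npc2 had negative values with Fdps (-0.116) and Idi1 (-0.113) in all 9 libraries, while Insig2 had -0.0142 with Fdps. By library the median over synthesis pairs ran from 0.0685 in the shallow library to 0.189 in Experiment 1 at 0 h.

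**Figure D5:**
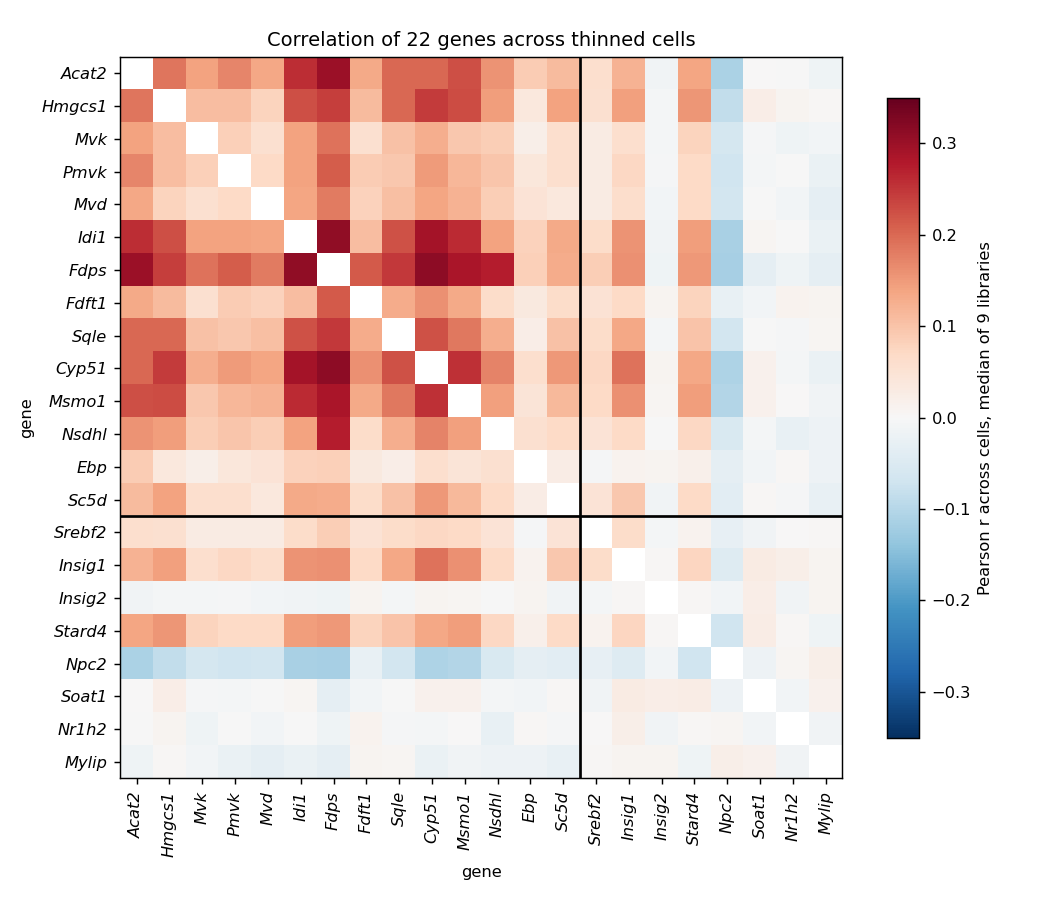
Median Pearson r over 9 libraries for each pair of the 22 genes with enough UMIs, from cells thinned to 5000 UMIs, with genes ordered by role on both axes. The block of synthesis genes is positive throughout, from 0.0213 to 0.312, while Npc2 is negative against several of them.

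Insig1, a sensor that SREBP itself switches on, stood with the synthesis genes across cells. Of 5090 genes measured deeply enough, the 5 with the highest median r to Insig1 were Cyp51 (0.190), Fdps (0.160), Msmo1 (0.159), Idi1 (0.157) and Scd2 (0.155), a fatty acid desaturase that is not among the 33. Cells with an Insig1 UMI held more synthesis UMIs than cells without in all 9 libraries, for example 9.13 against 4.72 in Experiment 1 at 0 h and 13.1 against 11.3 in Experiment 2 at 19 h without Dox. The share of cells with an Insig1 UMI was 17.6% to 28.3% over the 9 libraries (50.8% to 79.3% before thinning). Cells with a Gli1 UMI, a mark of the SAG response, did not stand out in one direction. In Experiment 1 there were 33 and 15 such cells at 17 and 30 h, and they held 5.42 and 3.67 synthesis UMIs against 4.54 and 3.64 in the other cells. At 10000 UMIs the 30 h values turned round, to 7.375 against 7.748. The 213 and 233 such cells of Experiment 2 without Dox held 11.2 and 10.1 against 11.8 and 12.4 at 19 and 30 h. With Dox 225 and 249 such cells held 10.5 and 11.7 against 11.4 and 12.2. At 10000 UMIs the values were 19.97 and 19.47 against 23.48 and 25.04 without Dox. With Dox they were 20.59 and 23.44 against 23.33 and 25.1. In Experiment 1 at 17 h they were 10.47 against 9.52. Cells of 1 library are not replicates, and these differences were not tested.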

How the data were processed

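Per the labels' protocols, libraries were made with the single cell 3' v3.1 kit of 10x Genomics. Per the submitters' processing notes, the authors used Cell Ranger and the build mm10. Per the file headers, the software version was 3.1.0 for Experiment 1 (31054 features) and 6.0.1 for Experiment 2 (32286 features). The authors deposited raw UMI counts for every gene in every barcode. Other upstream settings are not given in the sources used here.

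Features were joined by gene ID (30407 shared, 597 with a changed symbol), and UMIs outside them were 0.0711% to 0.8575% of those of kept cells. Deposited totals were 33787321 to 198610010 UMIs per library. The mitochondrial limit removed 25.93% to 46.34% of barcodes with at least 5000 UMIs. No doublet caller was run. Pairs of libraries shared 0 to 9 kept barcodes.

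Counts summed per library were tested with edgeR 4.0.16 in R 4.3.3 (filterByExpr, TMM, quasi-likelihood F test, Benjamini-Hochberg over all 14354 genes tested, adjusted p under 0.05). The SAG, Dox and experiment comparisons used all 9 libraries with arm and time as terms (4 residual degrees of freedom), and the differences of the SAG response used arm by SAG (3). SE was obtained as the log2 change over the root of the F statistic. Replicate numbers are the experiment numbers of the labels. The experiment is in the fit as a block, and libraries of 1 experiment deviated together, with r of 0.782, 0.681 and 0.788 between times across genes. As the labels do not say that cultures were separate, the p-values reflect the spread of these libraries alone, and that spread may be technical. Within an arm, changes were taken between log2 CPM values to which edgeR added a prior count of 2.

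Intervals are at 95% and cover counting error only. Positions are of GENCODE vM21 (GRCm38) and promoter letters of RefSeq (GRCm38.p6). Python 3.11.15, numpy 2.4.6, scipy 1.17.1 and pandas 2.3.3 did the rest, and the fits were tested on simulated data. The genes and lists were chosen with earlier results of these data known. Full values are given for genes called, at most 12 by p, and where fewer than 3 were called for up to 3 of smallest p in each direction. Genes named outside this rule were chosen after their values were seen. The counts of 1 related list are not reported here. Alternatives were DESeq2 1.42.0, RLE factors, library size alone, other filters on genes and cells, other terms and leaving out each library.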

Additional observations from a re-analysis of the deposited data

How the results depend on the processing

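Of the counts of the 33 genes called, that between experiments held best, at 23 to 26 of 31 when a library was left out. In the main fit 46.3% of all genes tested were called there. Their counts with a library left out are not given here, so this stability is not read as particular to the 31. For 30 h of SAG the count of 1 became 3 with DESeq2 and 0 with a filter of 10 CPM in 3 libraries, with library size alone (an alternative chosen after seeing the data), with no replicate block, and with condition and experiment as replicate block, and it ran from 0 to 7 when a library was left out. Over all genes that comparison called 774, against 1881 with DESeq2, 9, 13, 0 and 64 in the same order, and 1 to 6072 when a library was left out. For 17 to 19 h of SAG the count of 0 ran from 0 to 1. For Dox the count of 6 became 11 with DESeq2, 3 with 10 CPM, 2 with library size alone and 14 with Experiment 2 only, and ran from 0 to 12. Over all genes Dox called 1423 (795 higher, 628 lower), against 703 with 10 CPM, 5239 with Experiment 2 only and 1603 with library size alone (1509 higher, 94 lower), and 126 to 4415 when a library was left out. The difference of the SAG response between experiments, 0 genes, became 1 with DESeq2, 1 without a low-count filter and 0 to 7 when a library was left out. Over all genes it called 8, against 197, 601 and up to 2740. It could not be fitted without a 0 h library of an arm concerned. The replicate block changed no other call of a comparison, and no gene called in the main fits changed sign in an alternative one. The balance of signs among the synthesis genes did turn round with library size alone, for Dox and between SAG times. At 10000 UMIs per cell the median Insig1 share was 40.78% in place of 22.94%, and the median r of synthesis pairs 0.2172 in place of 0.131. Genes at a few CPM, such as Dhcr7 and Abca1, are the least precise, and a low count of genes passing is no sign that levels were equal. The cause of these shifts was not tested.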
